A study of Homo sapiens with 3 samples.

Results

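Graphene oxide (GO) was set directly against reduced graphene oxide (rGO) in HepG2 cells, an established human hepatoblastoma line that keeps many functions of liver cells. The comparison rests on 2 of the 3 arrays of the series: 1 array of cells exposed to GO and 1 of cells exposed to rGO, each for 24 h and each at its own EC20, the dose taken from viability assays as giving a 20% effect. The remaining array, of HepG2 cells that received no material, is given beside them for orientation. The mass of material behind each EC20 is not given in the sources used here, so the material and its dose cannot be told apart. There was 1 array per condition and no replicate, so no value below carries a replicate error and no test was possible. Every difference is the log2 value of the GO array minus that of the rGO array, called GO minus rGO from here on.

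GO is a sheet of carbon that carries oxygen groups such as epoxides, hydroxyls and carboxyls, and rGO is the same kind of sheet after much of that oxygen has been removed. Oxygen groups make GO disperse in water and let it bind proteins and metal ions, whereas rGO is more hydrophobic. In liver cells, exposures of many kinds are read through a few well-known gene programmes. These include the metallothioneins and detoxification enzymes, the SMAD-controlled iron hormone hepcidin, the hypoxia and insulin-like growth factor genes, and the genes of cell division.

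The 3 arrays had nearly equal centres, with median log2 values of 6.63 with GO, 6.66 with rGO and 6.65 in untreated cells. Over the probe sets, the GO and rGO arrays correlated at r = 0.991 (across probe sets, which are not replicates). Genes entered the comparison when they averaged at least a log2 value of 6.66 over the arrays, the 40th percentile, which left 11050 of 18417 genes. Of 17 listed markers of HepG2 cells and hepatocytes, 15 were measured and all 15 were past this level, with log2 values from 9.08 to 13.5 with GO and from 8.77 to 13.6 with rGO. The median GO minus rGO difference of the genes was 0.015, and its robust SD across genes (the scaled median absolute deviation) was 0.218. For genes with more than 1 probe set, the robust SD between probe sets of the same gene was 0.0670. That second value covers probe error within these arrays only and says nothing of the spread between cultures. It may be too small where probe sets of a gene share sequence, which was not analysed.

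Of the 11050 genes, 29 (0.262%) were at least 2-fold higher with GO than with rGO, and 59 (0.534%) were at least 2-fold lower with GO. Together these 88 genes were 0.796% of the genes compared. At 1.5-fold there were 201 genes higher with GO (1.82%) and 354 lower with GO (3.2%), or 5.02% in both directions. Thus the lower side held more genes at either size, although 5849 of the 11050 genes lay above 0. Among the 88 genes, 26 of the 29 higher ones and 58 of the 59 lower ones were protein coding. The shares over all genes given here are the background for each count of list members below.

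**Figure D1:**
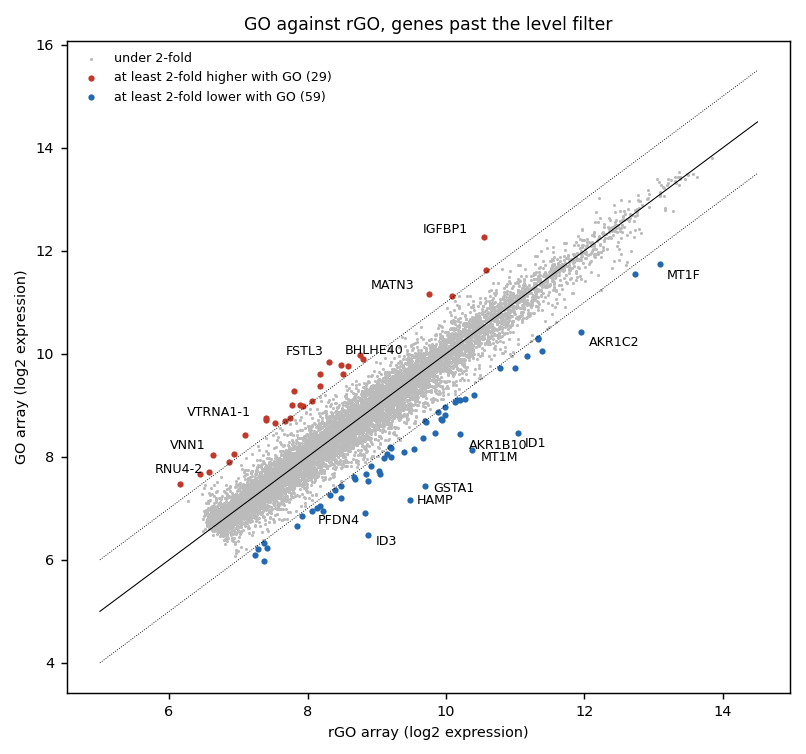
Log2 expression in the GO array (vertical axis) against the rGO array (horizontal axis), 1 point for each of 11050 genes past the level filter, with the line of equality and dotted lines at 2-fold. The 29 red points are at least 2-fold higher with GO and the 59 blue points at least 2-fold lower, and the blue points reach farther from the line (ID1, -2.57) than the red ones (IGFBP1, 1.72).

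The untreated array shows on which side each material stood. In the 29 genes higher with GO, the median log2 level was 9.004 with GO, 7.89 with rGO and 7.95 in untreated cells. In the 59 genes lower with GO, the median was 8.09 with GO, 9.40 with rGO and 9.34 in untreated cells. Taken gene by gene, the median of rGO minus untreated was 0.0035 in the 29 genes and -0.09 in the 59. The rGO array thus lay slightly below untreated cells in the 59 genes by this measure. The rGO array therefore stood close to untreated cells in both groups, and the GO array stood apart. In single genes, GO minus untreated ran from 0.52 to 1.99 among the 29 genes and from -2.88 to -0.77 among the 59, whereas rGO minus untreated ran from -0.79 to 0.27 and from -0.40 to 0.30. The differences share arrays with each other, so they are given side by side and are not independent of the choice of genes.

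**Figure D2:**
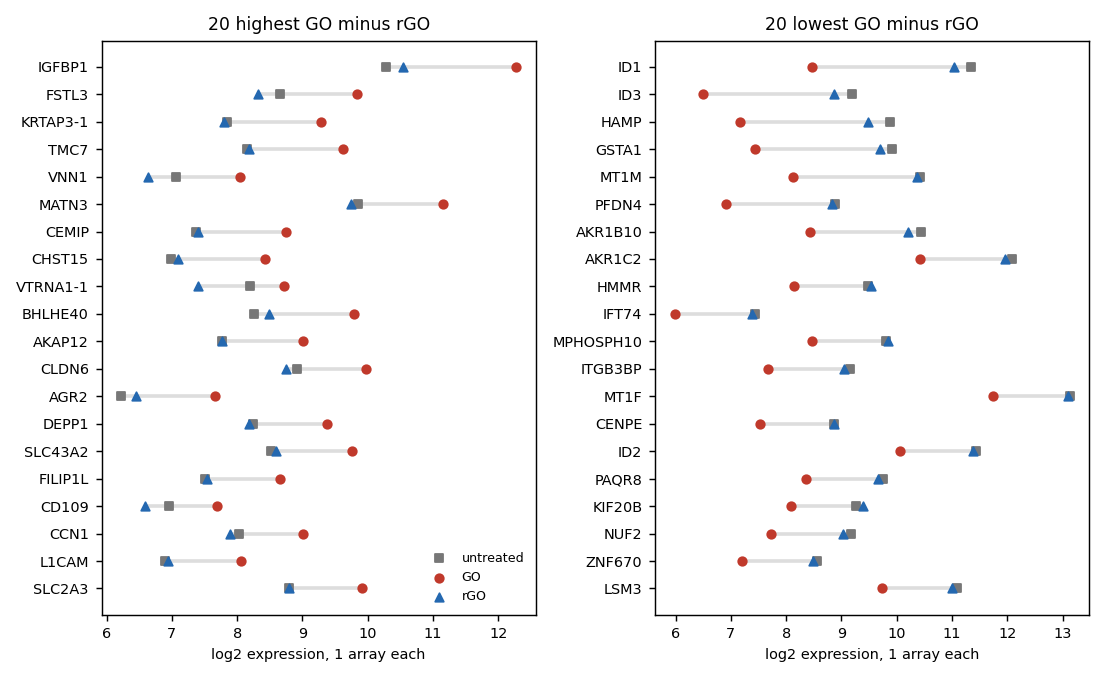
Log2 expression in the untreated (square), GO (circle) and rGO (triangle) arrays, 1 value each, for the 20 genes with the highest (left) and the 20 with the lowest (right) GO minus rGO difference, small RNAs other than vault RNAs left out. In nearly every line the rGO value lies nearer to the untreated value than the GO value does. In several lines the rGO value also lies away from untreated. Among them are VNN1 (7.06 untreated, 6.63 with rGO), VTRNA1-1 (8.20 and 7.40), HAMP (9.87 and 9.48) and FSTL3 (8.66 and 8.32).

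The genes that separated the materials most were targets of bone morphogenetic protein (BMP) signalling. BMP ligands act through receptor kinases that phosphorylate SMAD proteins, which then switch on the ID genes, hepcidin and their own inhibitors. ID1, which encodes a helix-loop-helix protein that blocks DNA binding by its partners, stood at 11.35 in untreated cells, 8.46 with GO and 11.04 with rGO. Its level was 5.95-fold lower with GO than with rGO, the largest gap in the comparison. ID3, a close relative, stood at 9.19 untreated, 6.49 with GO and 8.87 with rGO, a 5.22-fold lower value with GO. The GO value of ID3 lies under the level filter of 6.66, near the dim end of the scale. ID2, another member, was less far apart at 11.44 untreated, 10.06 with GO and 11.39 with rGO (2.51-fold lower with GO).

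HAMP encodes hepcidin, the liver hormone that holds iron inside cells by removing its exporter. HAMP stood at 9.87 in untreated cells, 7.16 with GO and 9.48 with rGO, so that it was 4.99-fold lower with GO than with rGO. The rGO array was also below untreated cells in HAMP (-0.40), ID1 (-0.31) and ID3 (-0.32). Across all genes compared, the robust SD of rGO minus untreated was 0.116. The promoter of HAMP is shown because BMP-activated SMAD proteins are known to bind GC-rich palindromes in this gene. It is the 250 bases upstream of the HAMP start in RefSeq (GRCh38.p14, chr19:35282278-35282527, plus strand), 5′ to 3′, with matches to the letters GGCGCC in capitals.
HAMP: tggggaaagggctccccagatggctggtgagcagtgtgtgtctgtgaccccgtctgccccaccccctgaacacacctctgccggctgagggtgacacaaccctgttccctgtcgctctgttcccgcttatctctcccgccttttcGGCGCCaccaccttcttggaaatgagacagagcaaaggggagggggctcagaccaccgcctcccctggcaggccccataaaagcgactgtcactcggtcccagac
The search covered both strands, and since GGCGCC is its own reverse complement each match counts on both strands at the same place. HAMP held 1 match, 105 to 100 bases before the start, and 16.4% of 35116 RefSeq promoter windows of the same length held at least 1. The match describes these letters and no binding was measured here.

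All 11 BMP-SMAD targets and feedback genes past the level filter (of 15 measured) had lower values with GO than with rGO, from -2.57 to -0.03. Of these, 4 (ID1, ID2, ID3 and HAMP) were at least 2-fold lower and 5 at least 1.5-fold lower, beside the 0.534% and 3.2% of all genes. The fifth was SMAD7, the inhibitory SMAD that shuts the receptors off, which stood at 7.84 untreated, 6.78 with GO and 7.71 with rGO (-0.92). SMAD6, the other inhibitory SMAD, differed less (-0.41), and TMPRSS6, a protease that restrains hepcidin, stood at 7.34, 7.12 and 7.26 (-0.13). The list's median of -0.49 moved to -0.21 with no level filter and to -1.33 with the stricter 60th percentile filter.

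A list that joins BMP and TGF-beta pathway members did not share this direction. Values of single BMP ligands and BMP receptors are not given here, so their direction cannot be read from the list. Of 28 ligands, receptors, binding proteins and SMADs of the BMP and TGF-beta pathways past the filter, 23 lay above 0 (median 0.14), and 1 was at least 2-fold higher with GO. That gene was FSTL3, which encodes a secreted protein that binds and neutralises activin and related ligands. FSTL3 stood at 8.66 untreated, 9.84 with GO and 8.32 with rGO, or 2.87-fold higher with GO. FST, the follistatin gene with the same kind of function, stood at 10.32, 10.95 and 10.16 (0.79). TGFBR3, a co-receptor for TGF-beta, stood at 10.79, 11.65 and 10.80 (0.84), and TGFB1, a TGF-beta ligand, at 8.14, 8.98 and 8.32 (0.67). The signal carriers differed little, with SMAD1 at -0.01, SMAD5 at -0.04 and SMAD4 at 0.02, while SMAD3 was higher with GO (0.61). Among 17 iron-handling genes none was at least 2-fold apart and the median was -0.02, with 8 above 0 and 9 below. The farthest apart were the copper- and iron-handling ceruloplasmin (CP, 0.68), higher with GO, and the haem-binding protein HPX (-0.56) and the haemoglobin-binding protein HP (-0.37), lower with GO, while the transferrin receptor TFRC (0.29) and transferrin (TF, 0.10) were nearer to level.

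Metallothioneins were the next group in which GO and rGO parted. These small cysteine-rich proteins bind zinc and copper, and their genes, which sit side by side on chromosome 16, are switched on by the zinc-sensing factor MTF1. MT1M stood at 10.43 in untreated cells, 8.13 with GO and 10.37 with rGO, so that it was 4.74-fold lower with GO. MT1F stood at 13.13, 11.73 and 13.09 (2.56-fold lower with GO). MT1G stood at 12.76, 11.54 and 12.72 (2.27-fold lower with GO). In each of the 3 genes the rGO value lay next to that of untreated cells, and only the GO value stood apart. MT1X stood at 11.65, 10.62 and 11.58 (-0.96), just short of 2-fold, followed by MT1H (-0.63) and MT1E (-0.60). MT2A was nearly level at 13.62 untreated, 13.43 with GO and 13.62 with rGO (-0.19).

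All 13 metallothionein genes and pseudogenes lay below 0 with a median of -0.60. Of these, 3 were at least 2-fold and 7 at least 1.5-fold lower with GO, beside 0.534% and 3.2% of all genes. The probe sets of these genes share sequence with each other, so the members are not separate readings and the signal of near-identical copies may be split among them. The promoters of MT1X, MT1H and MT2A are shown because these genes share their regulator and differed in the size of the gap. Each is the 250 bases upstream of the start (RefSeq, GRCh38.p14, plus strand), 5′ to 3′, with matches to the core of the metal response element in capitals. The core was searched as TGCNCNC on both strands, where N is any base, and a match on the minus strand appears as its reverse complement. The windows are MT1X chr16:56682220-56682469, MT1H chr16:56669564-56669813 and MT2A chr16:56608334-56608583.
MT1X: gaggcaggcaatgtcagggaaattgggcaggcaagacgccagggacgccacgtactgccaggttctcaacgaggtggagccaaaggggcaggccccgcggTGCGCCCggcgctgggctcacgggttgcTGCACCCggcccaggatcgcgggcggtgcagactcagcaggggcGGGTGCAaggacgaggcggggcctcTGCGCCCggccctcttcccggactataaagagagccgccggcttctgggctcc
MT1H: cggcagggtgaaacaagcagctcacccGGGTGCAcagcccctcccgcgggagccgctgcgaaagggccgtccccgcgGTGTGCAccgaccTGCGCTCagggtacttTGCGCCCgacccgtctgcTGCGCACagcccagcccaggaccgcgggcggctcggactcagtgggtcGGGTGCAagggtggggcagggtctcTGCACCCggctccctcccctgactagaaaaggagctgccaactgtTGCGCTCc
MT2A: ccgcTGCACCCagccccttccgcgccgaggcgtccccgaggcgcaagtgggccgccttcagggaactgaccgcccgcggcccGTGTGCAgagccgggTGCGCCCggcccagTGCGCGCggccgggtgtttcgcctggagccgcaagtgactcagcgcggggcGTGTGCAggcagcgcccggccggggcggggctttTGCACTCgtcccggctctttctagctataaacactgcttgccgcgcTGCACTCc
MT1X held 4 matches, MT1H held 8 and MT2A held 7, where 1.77%, 0.0513% and 0.0854% of the 35116 promoter windows held at least as many. MT2A, with 7 matches, was the nearly level gene and MT1X, with 4, was almost 2-fold apart. The 3 genes were chosen because their gaps differed, and a link between matches and gap was not tested. Of the 13 genes, 5 were in the promoter table, and MT1M, MT1F and MT1G are given without a promoter.

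Zinc and copper transporters did not share the direction of the metallothioneins. Of 25 past the filter, 15 lay above 0, none was 2-fold apart and the median was 0.07. The zinc exporter SLC30A1, another target of MTF1, stood at 9.45 untreated, 9.09 with GO and 9.37 with rGO (-0.28). The importer SLC39A10 stood at 7.91, 8.71 and 7.82 (0.89, higher with GO), and the importer SLC39A4 at 9.06, 9.58 and 8.997 (0.58).

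Enzymes that reduce or conjugate foreign compounds were lower with GO, in particular aldo-keto reductases and alpha-class glutathione transferases. AKR1B10, which reduces reactive aldehydes, stood at 10.43 in untreated cells, 8.44 with GO and 10.20 with rGO (3.39-fold lower with GO). AKR1C2, a steroid-reducing member, stood at 12.08, 10.43 and 11.95 (2.88-fold lower with GO). AKR1C3 stood at 10.43, 9.40 and 10.10 (-0.71). In these genes the rGO array was a little below untreated cells and the GO array was more than 1 log2 unit below them. Of 7 aldo-keto reductases past the filter 6 lay below 0, 2 of them by at least 2-fold. Their median was -0.71, or -0.25 without the level filter. AKR1C1 depended on the probe set, with -0.83 in the one with the higher mean and 0.05 in the other, and the AKR1C genes are near-identical copies, so their single values are uncertain. Averaging the probe sets of each gene took the list's median to -0.39.

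GSTA1, an abundant liver glutathione transferase, stood at 9.92 untreated, 7.43 with GO and 9.69 with rGO, or 4.80-fold lower with GO. GSTA2 stood at 7.67, 6.23 and 7.41 (2.26-fold lower with GO, with a GO value under the filter level), and GSTA4, which detoxifies lipid aldehydes, at 8.96, 8.09 and 8.85 (-0.76). The median was -1.18 for the 3 alpha-class genes past the filter, and 12 other glutathione transferases had a median of 0.03 with none past 1.5-fold. GSTA1 and GSTA2 are close copies of each other, so their signals may overlap. SULT1E1, the oestrogen sulphotransferase, stood at 7.36, 6.21 and 7.29 (2.12-fold lower with GO), and UGT2B7, a glucuronosyltransferase, at 7.98, 7.44 and 8.19 (-0.75). Across the 24 conjugation genes 17 lay below 0, 3 were at least 2-fold lower and the median was -0.20.

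The cytochromes P450 and the oxidative stress genes separated the materials less. None of 21 cytochromes P450 was 2-fold apart (median -0.12, or -0.02 with no level filter and -0.29 with the 60th percentile filter), and 3 were at least 1.5-fold lower with GO: CYP4F12 (-0.96), CYP3A43 (-0.88) and CYP24A1 (-0.72), the vitamin D-degrading enzyme. CYP1A1, the classic target of the aryl hydrocarbon receptor, stood at 7.24 untreated, 7.11 with GO and 6.72 with rGO (0.39). NFE2L2, which encodes the antioxidant regulator NRF2, stood at 11.19, 10.29 and 11.05 (-0.75, lower with GO). Of the other genes in its list, which leaves out the aldo-keto reductases given above although some are known NRF2 targets, none was 1.5-fold apart. TXN (-0.55) and UGDH (-0.48) were the farthest apart, NQO1 and TXNRD1 differed by -0.38, GCLM by -0.23, HMOX1 by 0.05 and SRXN1 by 0.03. The 26 NRF2 genes had a median of -0.14, and the 22 genes of peroxide and superoxide detoxification a median of -0.0061 with none past 1.5-fold.

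Genes of mitosis were lower with GO than with rGO over a broad set, most of all those of the kinetochore, the structure on chromosomes that spindle fibres attach to. Of 42 kinetochore, centromere and augmin genes past the filter, 39 lay below 0 and none was 1.5-fold higher with GO. Of the 42, 6 were at least 2-fold and 12 at least 1.5-fold lower with GO, beside 0.534% and 3.2% of all genes. ITGB3BP, which encodes centromere protein R, stood at 9.15 in untreated cells, 7.67 with GO and 9.04 with rGO (2.59-fold lower with GO). CENPE, a kinetochore motor, stood at 8.87, 7.53 and 8.87 (2.54-fold lower with GO). NUF2, a subunit of the microtubule-binding NDC80 complex, stood at 9.17, 7.73 and 9.03 (2.46-fold lower with GO). All 3 had the same order, with untreated and rGO close and GO below. CENPK (-1.23), CENPQ (-1.19) and HAUS1 (-1.16), the last an augmin subunit that branches spindle microtubules, were the others past 2-fold. The list's median was -0.39. SPC24, which belongs to the same complex as NUF2, went the other way at 7.99, 8.16 and 7.95 (0.21), and CENPB (0.18) did as well.

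Of 55 mitotic kinases, cyclins, motors and anaphase-promoting complex genes, 47 lay below 0 with a median of -0.28, and 2 were at least 2-fold lower with GO. These were HMMR, a spindle-assembly protein and hyaluronan receptor, at 9.48 untreated, 8.15 with GO and 9.54 with rGO (2.62-fold lower with GO), and the kinesin KIF20B at 9.27, 8.09 and 9.40 (2.47-fold lower with GO). KIF15 (-0.97) and CDK1 (-0.96), the kinase that starts mitosis, came close to 2-fold. Other central mitotic genes were level between the materials, among them PLK1 (0.02), AURKA (-0.05) and CCNB1 (-0.15). The 61 genes of the G1/S transition and DNA replication had a median of -0.13 and none past 2-fold, with the clamp loader RFC4 lowest (-0.99) and the helicase subunit MCM2 level (0.05). Among 40 DNA repair genes, XRCC4, which joins broken ends, was 2.16-fold lower with GO (8.14 untreated, 6.95 with GO, 8.06 with rGO), and the median was -0.18.

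Some subunits of large protein machines were lower with GO while their partners were not. PFDN4, a subunit of prefoldin, which hands unfolded actin and tubulin to the chaperonin, stood at 8.88 in untreated cells, 6.91 with GO and 8.83 with rGO (3.79-fold lower with GO). VBP1, another prefoldin subunit, differed by -0.76, and the 6 prefoldin genes had a median of -0.35 beside -0.09 for 9 chaperonin genes. In the proteasome core, the 7 alpha-ring genes had a median of -0.73 with 4 at least 1.5-fold lower with GO, while the 7 standard beta-ring genes had a median of 0.05 and none past 1.5-fold. PSMA3 stood at 10.39 untreated, 9.20 with GO and 10.40 with rGO (2.31-fold lower with GO). PSMA4 (-0.92), PSMA2 (-0.86) and PSMA6 (-0.73) were the other 3 past 1.5-fold, while PSMA1 (-0.14), PSMA7 (-0.16) and PSMA5 (0.07) were not. The 44 proteasome genes together had a median of -0.14.

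Splicing and mitochondrial genes showed the same uneven picture. LSM3, part of the ring that binds U6 RNA, stood at 11.09 untreated, 9.73 with GO and 11.003 with rGO (2.42-fold lower with GO), and LSM5 of the same ring at 9.34, 8.19 and 9.20 (2.01-fold lower with GO). The 11 SR splicing proteins past the filter all lay below 0 but by little (median -0.31, lowest -0.46), and 17 hnRNP genes had a median of -0.03. NDUFB3, a complex I subunit, stood at 8.36, 7.01 and 8.14 (2.18-fold lower with GO), whereas the median of 34 complex I genes was 0.0087 (their mean was -0.10) and NDUFA3 was higher with GO (0.53). COX7B of complex IV was 2.05-fold lower with GO and the mitochondrial ribosomal gene MRPL47 2.10-fold lower. Large-subunit mitochondrial ribosomal genes had a median of -0.16 (48 genes) and small-subunit ones of -0.08 (24 genes). Cytosolic ribosomal proteins (median -0.08, 60 genes) and nucleolar ribosome biogenesis factors (median -0.07, 43 genes) held none past 2-fold. DNAJC2, a ribosome-bound cochaperone, was 2.24-fold lower with GO among 61 heat shock and DNAJ genes with a median of -0.11.

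Cholesterol synthesis genes were lower with GO in 15 of 21. IDI1, which makes the isoprenoid building block dimethylallyl diphosphate, stood at 11.02 in untreated cells, 9.72 with GO and 10.78 with rGO (2.09-fold lower with GO). HMGCS1, an early enzyme of the pathway, stood at 11.02, 10.37 and 11.24 (-0.87). LSS, which closes the sterol ring system, stood at 9.67, 9.13 and 9.84 (-0.72). In HMGCS1 and LSS the rGO array was slightly above untreated cells and the GO array below, with an rGO excess of 0.23 and 0.18 beside a robust SD of 0.116 for rGO minus untreated across all genes compared. ACAT2 (-0.79), MSMO1 (-0.65) and SQLE (-0.60) made up the rest of the 6 genes at least 1.5-fold lower with GO, and the median of 21 genes was -0.33. The median of the same genes was -0.20 for GO minus untreated and 0.09 for rGO minus untreated. The sterol regulators SREBF2 (0.12) and SCAP (0.35), which sense and transmit low sterol, were not lower with GO.

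Other lipid and bile acid lists were mixed. GPAM, which starts triglyceride assembly, stood at 10.55 untreated, 9.54 with GO and 10.48 with rGO (-0.94), and MLXIPL, a glucose-sensing activator of lipid synthesis, at 9.97, 9.49 and 10.27 (-0.78). PLIN2, which coats lipid droplets, went the other way at 10.43, 11.02 and 10.38 (0.63), and so did CPT1A, which brings fatty acids into mitochondria, at 8.60, 9.33 and 8.60 (0.73). SLC51B, a subunit of the transporter that exports bile acids, stood at 8.92, 7.56 and 8.69 (2.19-fold lower with GO). VNN1, a pantetheinase of the liver and a target of the fatty acid sensor PPAR-alpha, stood at 7.06, 8.04 and 6.63 (2.66-fold higher with GO), with an rGO value under the filter level. The medians of the fatty acid synthesis, fatty acid oxidation and bile acid lists were -0.07, -0.04 and -0.07.

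**Figure D3:**
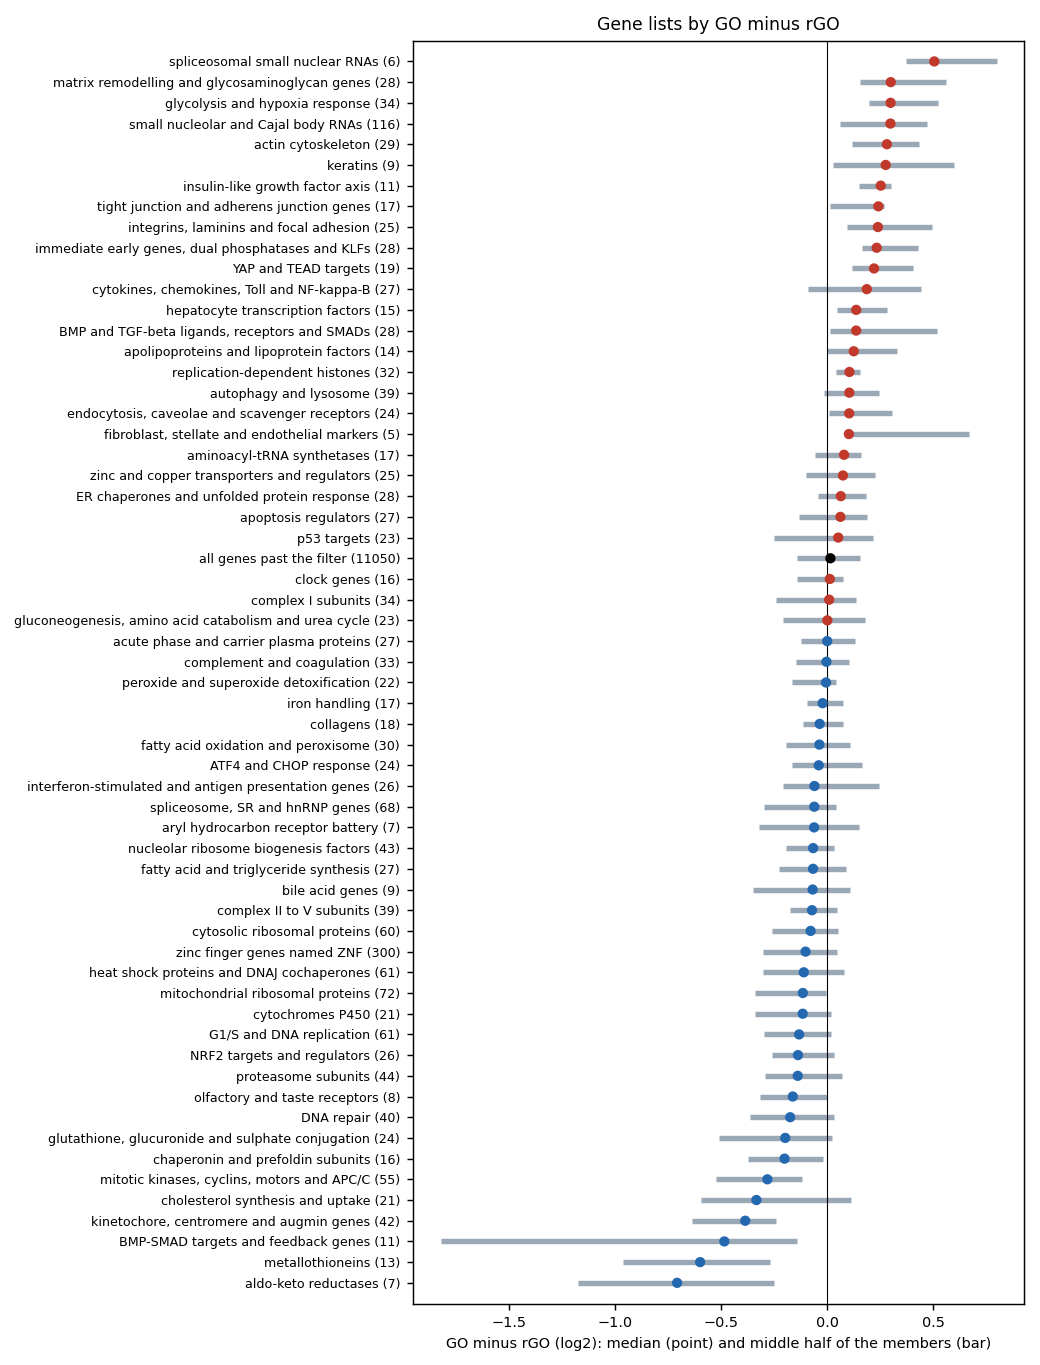
Median (point) and interquartile range (bar) of GO minus rGO on the log2 scale for each gene list, with the number of members past the level filter in parentheses and all 11050 genes in black. Aldo-keto reductases (-0.71), metallothioneins (-0.60), BMP-SMAD targets (-0.49) and kinetochore genes (-0.39) lie lowest, and spliceosomal small nuclear RNAs (0.50), glycolysis and hypoxia genes (0.30) and matrix genes (0.30) are among the highest; vault RNAs (0.82) and leukocyte markers (0.01), with 3 and 4 members, are not drawn.

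On the higher side, IGFBP1 led. It encodes a liver-secreted protein that binds insulin-like growth factors and is known to respond to low insulin, hypoxia and stress. IGFBP1 stood at 10.28 in untreated cells, 12.27 with GO and 10.55 with rGO, so that it was 3.30-fold higher with GO, and it was the only gene at least 3-fold higher. Of the 11 genes of the insulin-like growth factor axis past the filter, 10 lay above 0, with a median of 0.25. IGFBP1 was the only one of them past 1.5-fold.

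Glycolysis and hypoxia-response genes were higher with GO in small steps. Of 34 past the filter 32 lay above 0, with a median of 0.30, and 2 were at least 2-fold and 7 at least 1.5-fold higher with GO, beside 0.262% and 1.82% of all genes. BHLHE40, a repressor of the clock that hypoxia induces, stood at 8.26 untreated, 9.79 with GO and 8.48 with rGO (2.47-fold higher with GO). SLC2A3, the glucose transporter GLUT3, stood at 8.80, 9.91 and 8.80 (2.16-fold higher with GO). NDRG1 (9.65, 10.30 and 9.40) was 0.89 apart, and HK2, the first enzyme of glycolysis, stood at 9.04, 10.12 and 9.32 (0.81). Other glycolytic genes lay above 0 by less, with PKM at 0.45, ENO1 at 0.30, PGK1 at 0.29 and LDHA at 0.17. Several well-known hypoxia targets were nearly level, namely VEGFA (0.10), ADM (0.13), P4HA1 (0.07) and ANKRD37 (-0.05), and so was the regulator HIF1A (0.02).

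The promoter of BHLHE40 is shown because its gene led the hypoxia list and hypoxia-inducible factors are known to bind the letters ACGTG. It is the 250 bases upstream of the start (RefSeq, GRCh38.p14, chr3:4979187-4979436, plus strand), 5′ to 3′, with matches on either strand in capitals.
BHLHE40: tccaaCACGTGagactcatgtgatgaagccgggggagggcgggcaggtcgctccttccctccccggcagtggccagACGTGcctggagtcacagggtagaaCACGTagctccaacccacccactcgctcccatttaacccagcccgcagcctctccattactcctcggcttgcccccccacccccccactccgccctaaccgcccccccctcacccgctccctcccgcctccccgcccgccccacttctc
The window held 4 matches, of which 2 overlap on opposite strands within 1 CACGTG, the palindrome called an E-box that BHLHE40 and the clock proteins themselves recognise. At least 4 matches were found in 0.669% of the 35116 promoter windows and at least 1 E-box in 6.345%. The other clock genes did not follow BHLHE40, since the median of all 16 past the filter was 0.01.

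Cell-shape and adhesion genes were also higher with GO as a rule. ITGA2, a collagen-binding integrin, stood at 10.05 in untreated cells, 11.12 with GO and 10.09 with rGO (2.04-fold higher with GO). TNS4, a tensin of focal adhesions, stood at 7.95, 8.98 and 7.94 (2.05-fold higher with GO). CLDN6, a claudin of embryonic epithelia, stood at 8.92, 9.97 and 8.75 (2.32-fold higher with GO). In all 3 the rGO value was close to that of untreated cells. Of 25 integrin, laminin and focal adhesion genes 21 lay above 0 (median 0.24, or 0.12 with no level filter), and of 17 junction genes 14 did (median 0.24, or 0.06 with no level filter), including E-cadherin (CDH1, 7.84, 8.84 and 8.04, a difference of 0.80).

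The actin cytoskeleton list lay above 0 in 25 of 29 genes (median 0.28), with TAGLN2, an actin cross-linker, the farthest apart (7.56 untreated, 8.63 with GO, 7.74 with rGO). Another list held targets of the mechanically sensitive coactivator YAP together with pathway members, namely YAP1, WWTR1 and the TEAD and LATS genes. Of its 19 genes past the filter, 16 lay above 0 with a median of 0.22. CCN1, a matrix-bound signalling protein and YAP target, stood at 8.04, 9.004 and 7.89 (2.16-fold higher with GO), and its relative CCN2 at 10.91, 11.71 and 11.07 (0.65). The keratins past the filter were 9 of 48, with a median of 0.28, led by KRT19 (9.53, 10.32 and 9.36, a difference of 0.96). That median was -0.0058 with no filter, when all 48 keratins enter, and 0.61 with the 60th percentile filter.

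Matrix genes held 3 members at least 2-fold higher with GO. MATN3, a matrilin of the extracellular matrix, stood at 9.85 untreated, 11.16 with GO and 9.75 with rGO (2.66-fold higher with GO). CEMIP, which takes part in hyaluronan breakdown, stood at 7.37, 8.75 and 7.41 (2.54-fold higher with GO). CHST15, which sulphates chondroitin, stood at 6.98, 8.42 and 7.10 (2.50-fold higher with GO). Of 28 matrix remodelling and glycosaminoglycan genes 26 lay above 0 with a median of 0.30, and TIMP1 (0.88) and LOXL4 (0.88) came next. The collagens did not share this, with 8 of 18 above 0, a median of -0.04 and none past 1.5-fold.

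Immediate early genes, dual-specificity phosphatases and KLF factors, which report recent growth factor and stress signalling, lay above 0 in 26 of 28 (median 0.23). None was 2-fold apart and 5 were at least 1.5-fold higher with GO. FOSL2 stood at 8.03 untreated, 8.77 with GO and 7.90 with rGO (0.86). EGR1 stood at 9.53, 10.63 and 9.97 (0.66), a gene in which rGO also lay above untreated cells, by 0.44. IER3 (0.77), DUSP6 (0.66) and FOSL1 (0.64) were the other 3. Further genes at least 2-fold higher with GO included TMC7, an ion channel-like membrane protein (8.15, 9.61 and 8.18), the scaffold protein AKAP12 (7.77, 9.004 and 7.77), the amino acid transporter SLC43A2 (8.52, 9.76 and 8.59) and the adhesion molecule L1CAM (6.90, 8.05 and 6.94).

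Inflammatory, interferon and stress lists differed little as lists. Among 27 cytokine, chemokine and NF-kappa-B genes the median was 0.19, and CCL16, a liver-expressed chemokine, reached 2-fold at 7.66 untreated, 8.74 with GO and 7.74 with rGO. ICAM1, a leukocyte-binding adhesion molecule that was picked out after its values were seen, stood at 10.48, 11.63 and 10.59 (2.06-fold higher with GO), while CXCL8 was less far apart (0.37). Interferon-stimulated genes had a median of -0.06 (26 genes, or 0.14 with the 60th percentile filter), p53 targets of 0.05 (23 genes), apoptosis regulators of 0.06 (27 genes) and ATF4 targets of -0.04 (24 genes), and none of these lists held a gene past 2-fold. Within them, CDKN1A, the p53 target that stops the cell cycle, stood at 8.60, 8.72 and 8.49, and DDIT3, the stress factor CHOP, at 8.02, 7.79 and 8.06. Endoplasmic reticulum chaperones had a median of 0.06, with the disulphide isomerase AGR2 as the exception (6.23, 7.66 and 6.45, 2.31-fold higher with GO, untreated and rGO values under the filter level).

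Genes of uptake bear on how cells take in sheets of material. Of 24 endocytosis, caveola and scavenger receptor genes past the filter, 18 lay above 0 with a median of 0.10 and none was 2-fold apart. The caveola coat genes CAVIN2 (7.15 untreated, 8.13 with GO, 7.30 with rGO) and CAVIN1 (7.07, 7.74 and 7.11) and the clathrin light chain CLTB (8.71, 9.40 and 8.71) were at least 1.5-fold higher with GO, and the endosome tether EEA1 was at least 1.5-fold lower (9.42, 8.84 and 9.44). For autophagy and the lysosome the median was 0.10 over 39 genes, with none past 2-fold.

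Transcripts of secreted and regulatory liver genes differed little between the materials as lists. The medians were -0.00056 for 27 acute phase and carrier proteins and -0.0041 for 33 complement and coagulation genes. They were 0.12 for 14 apolipoproteins and 0.14 for 15 hepatocyte transcription factors, and no member of these lists was 2-fold apart. In the same order, 13, 16, 10 and 14 genes of the lists lay above 0, beside 52.9% of all genes. Albumin (ALB) stood at 13.50 untreated, 13.49 with GO and 13.57 with rGO, and alpha-fetoprotein (AFP) at 13.06, 12.79 and 13.16. Single genes did part by more than 1.5-fold: fibrinogen beta (FGB) was lower with GO (11.62, 10.77 and 11.52), and ceruloplasmin (CP, 10.83, 11.61 and 10.93) and vitronectin (VTN, 9.79, 10.56 and 9.90) were higher. Glucose-6-phosphatase (G6PC1), the last step of glucose release, stood at 8.66, 9.10 and 8.30 (0.80).

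Small structured RNAs were higher with GO than with rGO as a rule, and in the vault RNAs and most small nuclear RNAs rGO lay farther from untreated cells than GO did. The 3 vault RNAs, components of the large ribonucleoprotein particles called vaults, were all at least 1.5-fold higher with GO than with rGO. VTRNA1-1 stood at 8.20 in untreated cells, 8.72 with GO and 7.40 with rGO (2.48-fold higher with GO). VTRNA1-2 stood at 9.23, 8.72 and 7.89, and VTRNA1-3 at 8.40, 8.29 and 7.61. Their median was -0.11 for GO minus untreated and -0.79 for rGO minus untreated, so the rGO array held the lowest value of all 3 genes.

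All 11 RNAs annotated as small nuclear RNA lay above 0, with a median of 0.59. RNU4-2, the U4 component of the spliceosome, stood at 6.81 untreated, 7.48 with GO and 6.16 with rGO (2.49-fold higher with GO, with the rGO value under the filter level). RNU5B-1 stood at 7.34, 7.14 and 6.27, whereas RNU2-1 (13.48, 13.40 and 13.05) and RNU4-1 (10.67, 10.86 and 10.65) were less far apart. Of 106 small nucleolar RNAs, which guide chemical marks on ribosomal RNA, 82 lay above 0 with a median of 0.31, beside 0.015 for 10552 protein-coding genes. H/ACA-box members had a median of 0.37 (31 of 38 above 0) and C/D-box members of 0.28 (51 of 68 above 0), and SNORD82 alone among them was 2-fold apart (8.92, 9.60 and 8.51). The RNA of telomerase (TERC, 0.88), of RNase MRP (RMRP, 0.58) and of RNase P (RPPH1, 0.50) were all higher with GO, and in these 3 the GO value was the one farther from untreated cells. Long noncoding RNAs (145, median -0.05) and microRNA genes (26, median -0.06) did not share the direction. The labels describe biotin labelling of cDNA made from total RNA, and the recovery of short RNAs in each extract was not tested.

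**Figure D4:**
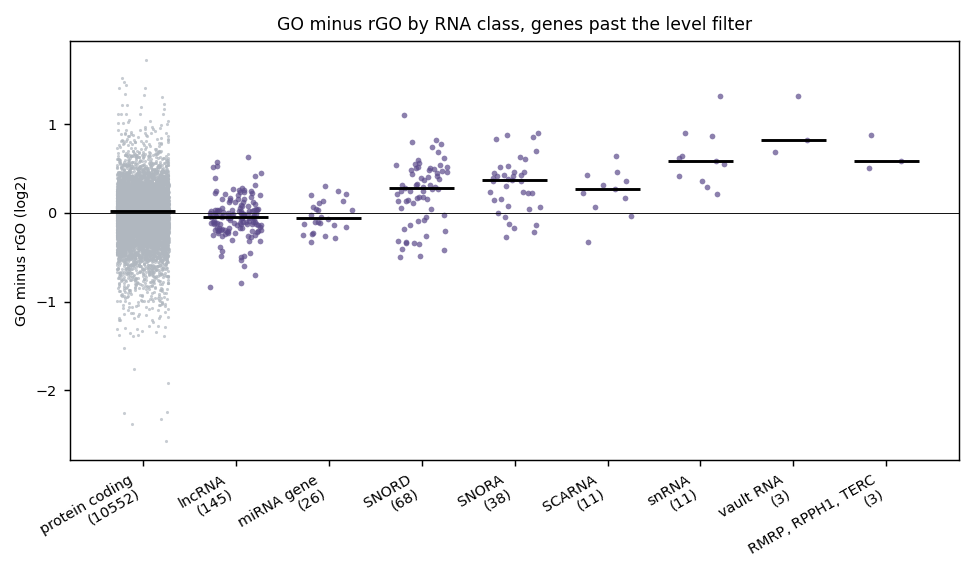
GO minus rGO on the log2 scale (vertical axis) for genes past the level filter, grouped by RNA class with the number of genes in parentheses, 1 point a gene and a bar at the median. The bars of the small nuclear (0.59), vault (0.82) and small nucleolar classes (0.28 and 0.37) lie above 0, and those of protein-coding genes (0.015), long noncoding RNAs (-0.05) and microRNA genes (-0.06) lie near it.

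**Figure D5:**
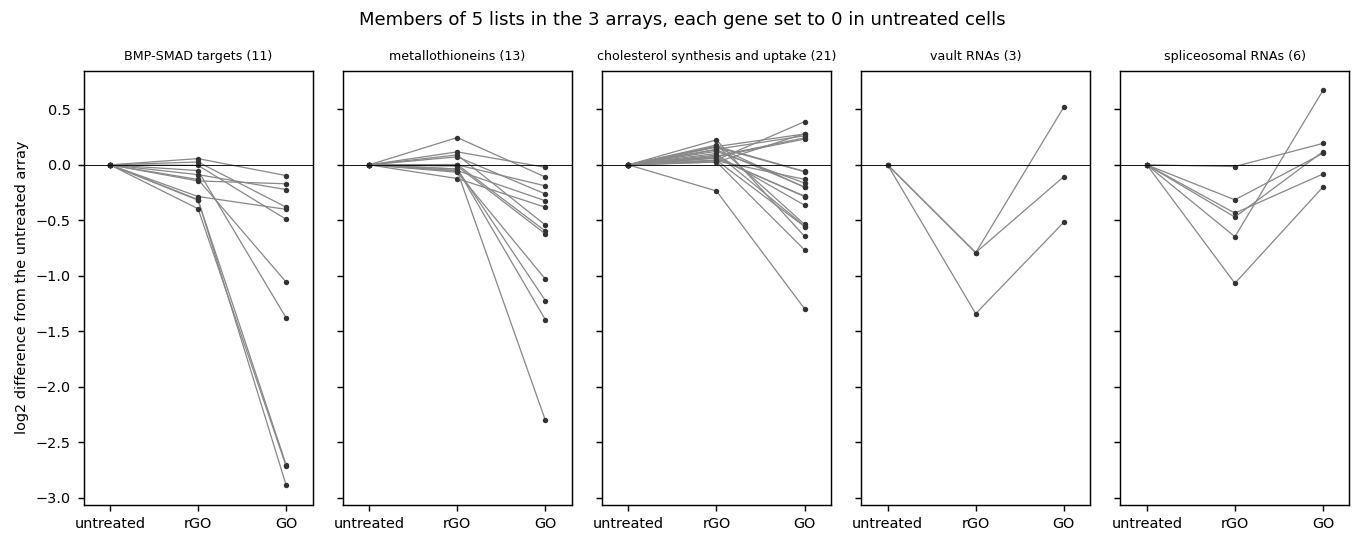
Log2 difference from the untreated array (vertical axis) in the untreated, rGO and GO arrays (horizontal axis) for the members of 5 lists past the filter, 1 line a gene. BMP-SMAD targets and metallothioneins go down with GO to -2.88 (ID1) and -2.30 (MT1M). With rGO the medians of these 2 lists are -0.13 and -0.01, and ID1 (-0.31), ID3 (-0.32) and HAMP (-0.40) also lie below untreated. The vault RNAs and most spliceosomal RNAs have their lowest point with rGO.

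Gene properties that no list used separated the higher from the lower genes in part. Protein-coding genes were ranked by the GC content of their promoter windows, which could be had for 8771 of 10552 (83.1%), and split into 4 groups of nearly equal size. The median GO minus rGO difference was -0.03, 0.0014, 0.02 and 0.05 from the most AT-rich to the most GC-rich group. The 4 groups held 19, 17, 8 and 2 of the genes at least 2-fold lower with GO, and 6, 4, 4 and 6 of those at least 2-fold higher. Genes at least 2-fold lower were thus found mostly in the AT-richer groups. Spearman's rho across genes was 0.137, a description over genes that share the same arrays. By level of expression, 4 equal groups from dim to bright held 6, 14, 16 and 22 of the genes at least 2-fold lower with GO and 6, 9, 7 and 4 of those higher. The level was the mean over the same 3 arrays that gave the differences. The order by level is therefore not independent of the differences and cannot be read as a separate gene property. Gene length gave no such order, with medians of 0.04, 0.02, -0.0061 and 0.01 from short to long.

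Few markers of other cells were past the filter. Of 14 measured leukocyte markers 4 were past the filter, with a median of 0.01, and CD68 (9.61 untreated, 9.98 with GO and 9.51 with rGO) was the farthest apart while LYZ was nearly level (13.23, 13.43 and 13.38). Of 15 fibroblast, stellate and endothelial markers 5 were past it with a median of 0.10, and 2 of them were at least 1.5-fold higher with GO. These were PDGFRB (6.97, 7.30 and 6.57) and LYVE1 (7.04, 7.26 and 6.59), both with rGO values under the filter level. Of 388 olfactory and taste receptors, which liver cells are not known to use, 8 were past the filter and none was 1.5-fold apart.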

How the data were processed

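Total RNA of 3 HepG2 cultures was measured on Affymetrix arrays, 1 array per condition. The deposited values are the authors' log2 expression values of 33297 probe sets. RMA and MAS5 appear in the submitters' processing notes, with neither version nor role; the authors' annotation and genome build were not given in the sources used here. The values were taken as deposited. They are relative to the array and hold no count or detection call, so their depth is unknown, and precision is limited by there being 1 array a condition.

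Probe sets were named through the platform annotation given with the data, which can be old: 19460 had 1 gene symbol, 1754 several and 12083 none listed. Of those with 1 symbol, 19429 matched RefSeq by Entrez ID and 0 symbols were updated. Each of 18417 genes was taken at its probe set with the highest mean over the 3 arrays (769 genes had a choice). Genes were counted at a size of 2-fold (log2 of 1), with 1.5-fold beside it. The rule for named genes took the 20 highest and 20 lowest genes, leaving out uncharacterised loci, olfactory receptors and small RNAs other than vault RNAs, plus the 4 largest differences in each of 61 gene lists, each list member past 2-fold, and genes at least 1.5-fold on opposite sides of untreated cells (252 genes). Other list members are printed as examples chosen after their values were seen. The compared conditions, the lists and their members were chosen with earlier results of these data known. HSPG2, perlecan, entered the heat shock list by its symbol and is no heat shock gene. Gene length stands in for a planned protein length.

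Promoter windows of 250 bases come from RefSeq (GRCh38.p14). The alternatives were quantile normalization, median centring, loess (span 0.3), other level filters, averaged probe sets, other sizes, list means and, added after seeing the data, protein-coding genes alone. The counting step was tested on simulated data. Tables were handled in pandas 2.3.3 and numpy 2.4.6 under Python 3.11.15, loess came from statsmodels 0.14.6 and rank correlations from scipy 1.17.1, and plots were drawn with matplotlib 3.10.9.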

Additional observations from a re-analysis of the deposited data

Results flagged for a closer look

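Among the genes compared, RNU4-2 alone had the materials 1.5-fold or more on opposite sides of untreated cells. GO minus untreated was 0.67 and rGO minus untreated was -0.65 on the log2 scale. The difference was not tested, since each value comes from 1 array, and the rGO value of RNU4-2 lies under the filter level.

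Probe sets with no listed gene symbol were outside the comparison of genes. Past the level filter there were 3911 such probe sets, of which 53 were at least 2-fold lower with GO than with rGO and 2 were at least 2-fold higher, or 1.41% together, beside 0.796% of the genes. Their robust SD of GO minus rGO was 0.281, beside 0.218 for the genes. The farthest apart were probe set 8135069, at 10.07 untreated, 11.98 with GO and 10.15 with rGO, and probe set 7894267, at 10.14 untreated, 8.69 with GO and 10.45 with rGO. What these probe sets detect was not analysed here.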

How the results depend on the processing

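At a size of 1.5-fold the counts were 201 genes higher and 354 lower with GO, and at 3-fold they were 1 and 7. The gene higher was IGFBP1, and those lower were ID1, ID3, HAMP, GSTA1, MT1M, PFDN4 and AKR1B10. Under the other settings the counts at 2-fold ran from 21 to 37 higher and from 47 to 66 lower. Of the 252 named genes, TYROBP alone turned its sign (-0.02 as reported, 0.02 under quantile normalization and under median centring), and the others kept theirs under these 2 settings, loess and averaged probe sets. Averaged probe sets brought 5 genes nearer to 0 (AKR1C1 -0.39, ATP5MK -0.54, NDUFS4 -0.59, RPL34 -0.57 and SNRPE -0.47). The median of the cytochromes P450 was -0.02 with no level filter and -0.29 with the 60th percentile filter. With no level filter the medians of the junction and integrin lists were 0.06 and 0.12, and that of the small nucleolar and Cajal body RNAs was 0.20. Signs of list medians turned under at least 1 setting for the keratins, the olfactory receptors and lists with medians near 0: iron (0.06 after quantile normalization), peroxide detoxification, collagens, complex I, fatty acid oxidation, acute phase, complement, gluconeogenesis, ATF4, p53, interferon (0.14 with the 60th percentile filter) and clock genes. No paired analysis was possible because each condition had 1 array and the labels give no replicate numbers. For the same reason no array could be left out. Differences in genes whose value in 1 array lies under the filter level (7 of the 59 lower and 4 of the 29 higher genes) are limited by the dim end of the scale.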

Other observations

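By chromosome, the median GO minus rGO difference of the protein-coding genes past the filter ran from -0.07 on chromosome 4 to 0.08 on chromosome 22. Differences between chromosomes were not tested. Zinc finger genes named ZNF, the largest list, lay below 0 in 204 of 300 with a median of -0.10. Of the 300, 19 were at least 1.5-fold lower with GO and 1 was at least 1.5-fold higher, beside 3.2% and 1.82% of all genes. ZNF670 was the only one past 2-fold (8.55 untreated, 7.20 with GO and 8.49 with rGO), beside 0.534% of all genes at least 2-fold lower. Replication-dependent histone genes lay above 0 in 29 of 32 with a median of 0.10 and none past 1.5-fold.

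CCDC59 was picked out after its values were seen, as a gene just under 2-fold whose 2 exposed arrays lay on opposite sides of untreated cells. It stood at 8.26 untreated, 7.66 with GO and 8.66 with rGO. In 27 genes with another probe set, the first probe set was at least 1.5-fold apart; the other lay on the same side of 0 in 26 and was itself past 1.5-fold in 17. The exception was AKR1C1. In 66 genes with several probe sets the pair held identical values, so such pairs are not always separate readings.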
